A study of Mus musculus with 8 samples.

Results

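The genes described here are those of the deposited table whose names mark ribosome biogenesis or the nucleolus: the Nop, Utp, Nol, Rrp, Noc2l to Noc4l, Polr1, Tsr and Snhg series, Gnl2 and Gnl3, several Wdr genes, and single genes such as Ncl, Npm1, Fbl, Dkc1, Gar1, Nhp2, Heatr1, Ltv1 and Rrs1. They were found by name alone, not by any measured value, and came to 42 of 5457 genes. The mouse annotation used (GENCODE vM21, GRCm38) holds 87 genes of these names. The other 46 were not analysed here, and Snhg4 was found in the table but not by that name in the annotation. Each gene in the table has a mean, plus 1, that differs at least 2-fold from that of Tw2_GM in at least 1 other group, so the 42 genes had to differ from Tw2_GM somewhere, and counts among them describe the listed genes only. All 42 could be measured in every library, and 36 reached 10 CPM (the reads of a gene scaled to the size of its library) in all 8 libraries.

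The cells were tdTomato-positive, sorted out of skeletal muscle of the hind limb of adult mice (C57BL/6) and plated on Matrigel. In the Pax7 groups the genotype was Pax7-CreERT2/+;R26-tdTO+, and in the Tw2 groups it was Tw2-CreERT2/+;R26-tdTO+. In each, a Cre recombinase that tamoxifen activates, driven from Pax7 (the transcription factor of satellite cells, the stem cells of muscle) or from Twist2 (a basic helix-loop-helix transcription factor), switches on the red reporter. All groups carry the reporter and had 3 tamoxifen treatments, given 10 days before harvest. Pax7_GM and Tw2_GM are titled GM (growth medium, with 20% fetal bovine serum), and Pax7_48 and Tw2_48 are titled 48, a number that the Tw2 titles give in hours and the Pax7 titles leave without a unit. The labels describe a differentiation medium with 2% horse serum and bFGF, without saying which titles it belongs to, and describe the RNA as coming from freshly sorted cells as well as from cultures. There are 2 libraries per group. Nothing says that they came from separate animals, so p-values measure only the spread between these libraries, which may be technical.

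Ribosomes are built in the nucleolus, where RNA polymerase I transcribes a long precursor of the ribosomal RNAs. Small nucleolar RNAs (snoRNAs) guide its chemical modification: box C/D particles, with the methyltransferase fibrillarin, add methyl groups to riboses, and box H/ACA particles, with the synthase dyskerin, turn uridines into pseudouridines. A large assembly, the small subunit processome, folds and cuts the precursor, and separate factors carry the small and large subunits to the cytoplasm. In many cell types these genes are among the targets of the transcription factor Myc and follow growth. Proliferating myoblasts leave the cell cycle when they fuse into fibres.

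The solved depth was lowest for Pax7_GM, at 7.38 M and 5.18 M reads, followed by Pax7_48 with 10.6 M and 7.64 M, Tw2_48 with 13.7 M and 9.40 M, and Tw2_GM with 12.2 M and 11.3 M. The 2 libraries of each group are called deeper and shallower. The Pax7_GM libraries stand apart from each other: over the 42 genes the median absolute log2 ratio of the shallower to the deeper was 0.44, against 0.10 in Tw2_GM, 0.13 in Tw2_48 and 0.11 in Pax7_48. That ratio followed the GC content of the transcript (Spearman rho -0.73 over the 41 annotated members and -0.78 over all 5247 genes with an annotated transcript, as a description of genes that share these libraries). Pax7 itself had 113 and 109 CPM in the Tw2_GM libraries beside 117 and 112 in those of Pax7_GM, so that it does not tell the lineages apart in GM, and Twist2 was not analysed here. Of 10 markers of satellite cells and myoblasts 6 are listed, with a summed level of 2347 to 3318 CPM in GM and 5470 to 8445 at 48. In each lineage 3 of these were called higher at 48 (Des, Itga7 and Cdh15, which carry the sum) and 3 lower (Pax7, Vcam1 and Sdc4). The table lists 7 solved markers of differentiating muscle, with a summed level of 241 to 279 CPM in Tw2_GM, 1327 to 1385 in Pax7_GM, 16894 to 16989 in Tw2_48 and 15195 to 15347 in Pax7_48. Of other cell types it lists 3 of 10 fibro-adipogenic markers (summed level 877 to 995 CPM in GM, 203 to 405 at 48). Among these, Col1a2 had 3.61 and 3.28 CPM in Tw2_GM against 424 and 387 in Pax7_GM, and Col3a1 had 987 and 940 against 462 and 477. In the Tw2 lineage Col3a1 made up most of the sum, with 194 and 197 CPM in Tw2_48. Col1a2 was at 6.84 and 24.1 CPM in Tw2_48. Col1a1 went from 3.53 and 2.39 CPM in Tw2_GM to 2.04 and 20.3 in Tw2_48. From GM to 48, 1 of the 3 was called higher and 1 lower in the Tw2 lineage, and 0 higher and 1 lower in the Pax7 lineage. Also listed are 5 of 7 pericyte and smooth muscle markers (summed level 1044 to 1516 CPM in GM, 3499 to 5052 at 48). Most of that sum is Des, a muscle gene that the satellite cell list holds too (899 to 1394 CPM in GM, 3377 to 4880 at 48). The rest were mixed: Rgs5 and Cspg4 were lower at 48 in both lineages, and Notch3 was called lower in the Pax7 lineage only. Abcc9 was higher at 48 in both. It went from 1.31 and 1.24 CPM in Tw2_GM to 92.3 and 80.2 in Tw2_48, and from 3.52 and 5.98 in Pax7_GM to 102 and 109 in Pax7_48. The table further lists 1 of 9 immune markers (Itgam, 0 in both Tw2_GM libraries, which allows up to 0.246 and 0.266 CPM at 3 reads, 0.54 and 0.58 CPM in Pax7_GM, 11.9 to 22.8 at 48) and 0 of 8 endothelial markers. In bulk RNA, fewer cells of a type and less RNA per cell cannot be told apart.

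Ribosome biogenesis genes were highest in growth medium cultures of the Tw2 lineage and fell in both lineages from GM to 48. Together the 42 genes made up 6298 and 6066 CPM in Tw2_GM, 2659 and 3066 in Pax7_GM, 2195 and 2044 in Tw2_48 and 1548 and 1504 in Pax7_48. The libraries of the 4 groups did not overlap in this sum. Ncl and Npm1 took a large part of it, and without them the sums were 4173 and 4123 CPM in Tw2_GM, 2421 and 2628 in Pax7_GM, 1751 and 1638 in Tw2_48, and 1404 and 1358 in Pax7_48. Tw2_GM had the highest mean of the 4 groups for 34 of 42 genes (81.0%), against 47.1% of all 5452 genes tested, and Pax7_48 had the lowest for 28 (66.7%, against 31.1%). The place of Tw2_GM above Pax7_GM depends on the scaling: the median log2 fold change of the 42 genes between them was 0.86 as scaled in the table, 0.40 with quantile normalization and 0.02 with size factors. Over all genes the medians were 0.34, -0.14 and -0.50 in the same order. Both scalings were set from the listed genes only, each kept for differing at least 2-fold from Tw2_GM somewhere. They may therefore differ from scalings set on all expressed genes.

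**Figure D1:**
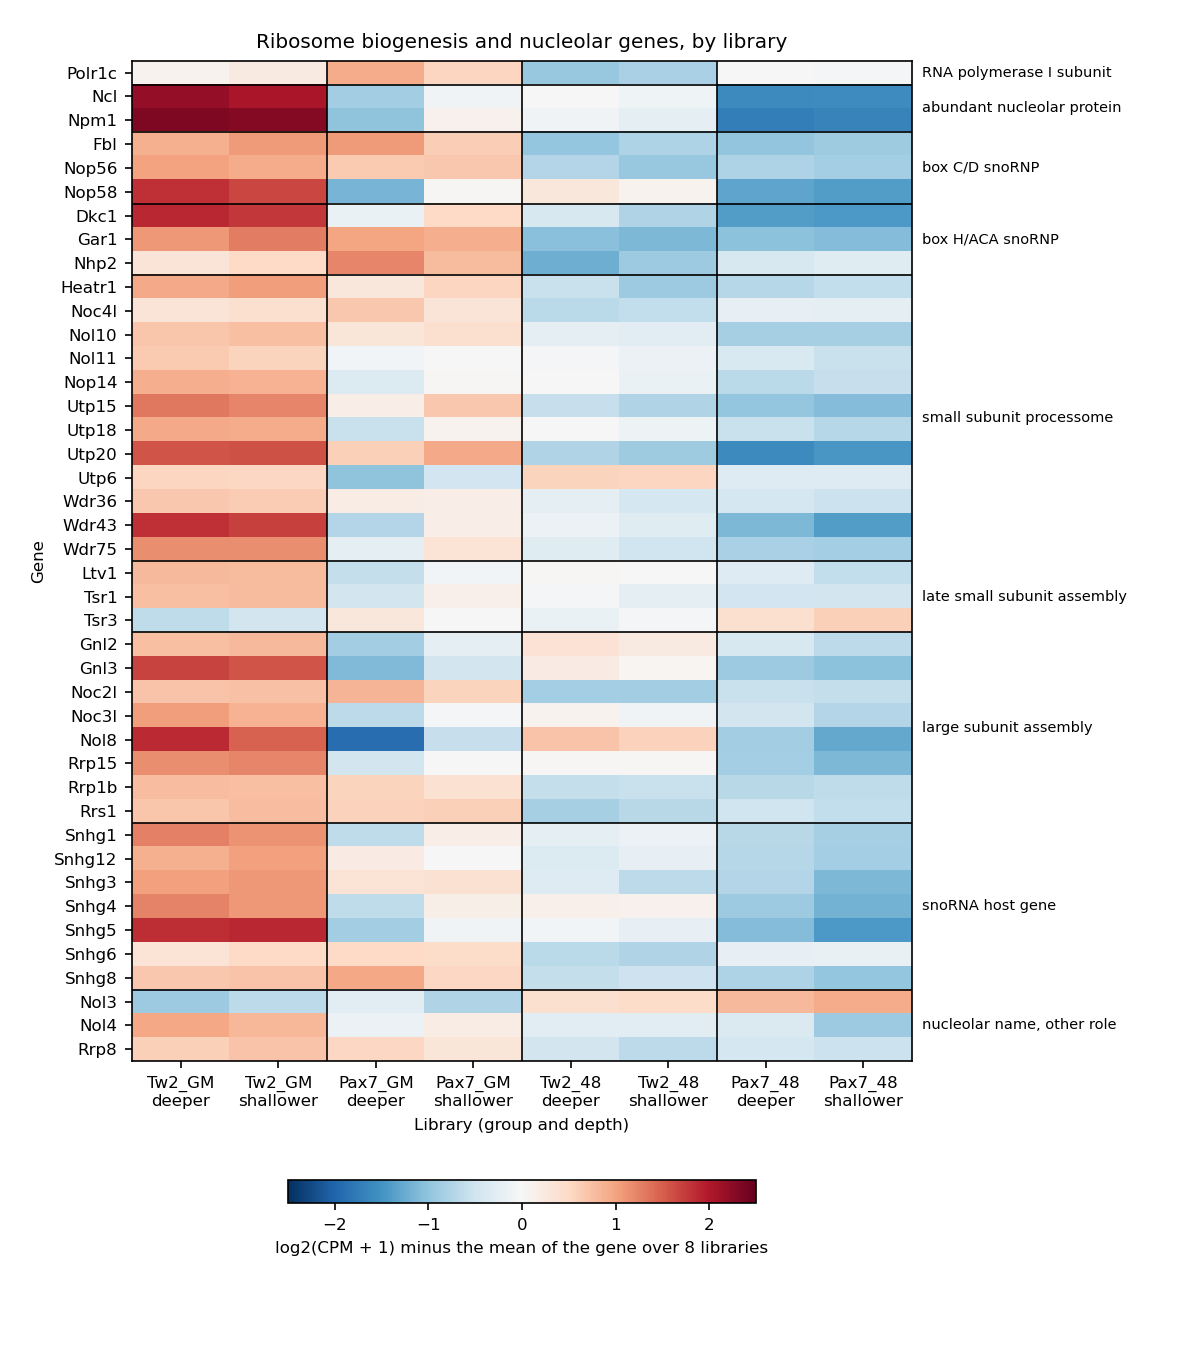
Level of each of the 42 genes (rows, grouped by role) in the 8 libraries (columns), as log2(CPM + 1) minus the mean of that gene over the 8 libraries, with red above and blue below the mean. Most rows are reddest in Tw2_GM and bluest in Pax7_48, the deeper and shallower Pax7_GM columns differ from each other for many genes, and Nol3 and Tsr3 run the other way.

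The first comparison asks how the genes differ between 48 and growth medium in each lineage. In the Pax7 lineage 30 of 42 fell, 1 rose and 11 did not pass (limma on log2(CPM + 1), Benjamini-Hochberg adjusted p below 0.05 over 5452 genes). The background in that comparison was 40.5% of all genes called lower and 38.8% called higher. In the Tw2 lineage 38 fell, 2 rose and 2 did not pass, against a background of 48.9% lower and 35.3% higher. The median log2 fold change was -0.79 over the 42 genes and 0.01 over all genes in the Pax7 lineage, and -1.24 and -0.49 in the Tw2 lineage. The markers of differentiating muscle moved with this change, with 7 of 7 higher at 48 in each lineage, by a median log2 fold change of 3.84 (Pax7) and 6.42 (Tw2). Their part in the fall was not tested.

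The abundant nucleolar proteins fell in both lineages. Nucleolin (Ncl, chr1:86344719-86359400) binds ribosomal RNA precursors and nucleolar chromatin. Its level was 1522 and 1355 CPM in the Tw2_GM libraries, 180 and 311 in Pax7_GM, 333 and 305 in Tw2_48, and 109 and 110 in Pax7_48. The GM libraries lay above the 48 libraries within each lineage, and the Tw2_GM libraries stood far above the other 6. The log2 fold change from GM to 48 was -1.11 ± 0.23 (SE, adjusted p = 0.00228, limma) in the Pax7 lineage and -2.17 ± 0.23 (adjusted p = 3.47e-05) in the Tw2 lineage. Nucleophosmin (Npm1, chr11:33152287-33163206), a histone and ribosome chaperone, was at 603 and 588 CPM in Tw2_GM, 58.3 and 127 in Pax7_GM, 111 and 100 in Tw2_48, and 35.3 and 36.4 in Pax7_48. The group means had the same order as for Ncl, and the shallower Pax7_GM library was above both Tw2_48 libraries while the deeper was below them. Npm1 fell by 1.24 ± 0.30 in the Pax7 lineage and by 2.48 ± 0.30 in the Tw2 lineage on the log2 scale (adjusted p = 0.00517 and 7.74e-05, limma).

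Of the box C/D core proteins, fibrillarin fell by similar values in both lineages. Fbl (chr7:28169710-28179269) had 51.4 and 58.3 CPM in Tw2_GM, 58.1 and 42.8 in Pax7_GM, 13.5 and 15.8 in Tw2_48, and 13.4 and 14.3 in Pax7_48. The 2 lineages overlapped in each culture, and the cultures did not overlap. The fall was 1.78 ± 0.17 in the Pax7 lineage and 1.84 ± 0.17 in the Tw2 lineage on the log2 scale (adjusted p = 2.39e-05 and 1.56e-05, limma). Nop56, which with Nop58 holds the particle together, had a log2 fold change of -1.47 ± 0.13 in the Pax7 lineage and -1.80 ± 0.13 in the Tw2 lineage (adjusted p = 1.36e-05 and 2.99e-06, limma). Nop58 (chr1:59684971-59719044) was at 295 and 263 CPM in Tw2_GM, 36 and 83.9 in Pax7_GM, 101 and 87.5 in Tw2_48, and 32.5 and 30.5 in Pax7_48. The gap between the Pax7_GM libraries was wider than that from the deeper of them to Pax7_48. Nop58 fell in the Tw2 lineage (log2 fold change -1.56 ± 0.33, adjusted p = 0.00206, limma), and its value in the Pax7 lineage was -0.79 ± 0.33 (adjusted p = 0.054). Without the deeper Pax7_GM library the latter was -1.39 and passed (adjusted p = 2.22e-06), and it passed once the GC and length trend was taken out (-1.15).

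The box H/ACA proteins fell in both lineages. Gar1 (chr3:129824912-129831396), a core protein of these particles, had 55.8 and 63.5 CPM in Tw2_GM, 51.8 and 49.2 in Pax7_GM, 11.9 and 11.3 in Tw2_48, and 12 and 11.5 in Pax7_48. It was about 4-fold lower at 48 in the Pax7 lineage (log2 fold change -2.01 ± 0.13, adjusted p = 2.02e-06, limma) and fell by 2.26 ± 0.13 on the log2 scale in the Tw2 lineage (adjusted p = 6.81e-07). Dyskerin (Dkc1) was at 163 and 150 CPM in Tw2_GM, 38.3 and 61.4 in Pax7_GM, 32.3 and 25.1 in Tw2_48, and 15.8 and 15.3 in Pax7_48. Its GM levels in the Pax7 lineage were nearer to Tw2_48 than to Tw2_GM. The log2 fold changes of Dkc1 were -1.58 ± 0.22 and -2.42 ± 0.22 in the Pax7 and Tw2 lineages (adjusted p = 0.000219 and 1.34e-05, limma). Those of Nhp2, a further core protein, were -1.35 ± 0.18 and -1.47 ± 0.18 (adjusted p = 0.000171 and 8.39e-05, limma).

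Among 12 genes of the small subunit processome, 10 fell in the Pax7 lineage and 11 in the Tw2 lineage. Utp20 (chr10:88746607-88826804), a very large scaffold of the processome, fell more than any other of the 42 genes in the Pax7 lineage. Its level was 276 and 276 CPM in Tw2_GM, 138 and 177 in Pax7_GM, 54.0 and 48.9 in Tw2_48, and 29.6 and 32.9 in Pax7_48, with no overlap between any of the 4 groups. Utp20 had log2 fold changes of -2.29 ± 0.15 and -2.41 ± 0.15 in the Pax7 and Tw2 lineages (adjusted p = 2.77e-06 and 1.47e-06, limma). Utp15, which also takes part in transcription of the precursor, followed with -1.45 ± 0.18 and -1.94 ± 0.18, and Heatr1 with -1.07 ± 0.16 and -1.74 ± 0.16. Wdr43 was at 200 and 183 CPM in Tw2_GM, 33.1 and 62.9 in Pax7_GM, 50.4 and 44.9 in Tw2_48, and 25.2 and 20.4 in Pax7_48. It fell by 1.99 ± 0.27 in the Tw2 lineage, and its fall in the Pax7 lineage (0.98 ± 0.27, adjusted p = 0.00947, limma) did not pass without the shallower Pax7_48 library (adjusted p = 0.068). Utp6 passed in neither lineage, with 120 and 118 CPM in Tw2_GM, 121 and 119 in Tw2_48, 40.4 and 59.2 in Pax7_GM, and 66 and 65.9 in Pax7_48. Its log2 fold change was 0.02 ± 0.18 in the Tw2 lineage and 0.42 ± 0.18 in the Pax7 lineage (adjusted p = 0.935 and 0.0565, limma). It was called higher at 48 in both lineages with size factors (0.47 and 0.67) and with the trend with GC content and length removed (0.57 and 0.68).

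Of 3 late small subunit factors, none was called lower in the Pax7 lineage. Ltv1 and Tsr1, which act on the small subunit on its way out of the nucleus, had log2 fold changes of -0.15 ± 0.19 and -0.31 ± 0.19 in the Pax7 lineage, where neither passed and the sign turned once the trend with GC content and length was removed (0.094 and 0.078). Without the deeper Pax7_GM library both were called lower there (-0.41 and -0.60, adjusted p = 0.0187 and 0.00123). In the Tw2 lineage they fell by 0.79 ± 0.19 and 0.92 ± 0.19 (adjusted p = 0.00451 and 0.00215, limma), and with size factors Ltv1 did not pass (-0.33, adjusted p = 0.109). Tsr3, an enzyme that modifies the small subunit RNA, was at 22.9 and 25.9 CPM in Tw2_GM, 44.0 and 36.7 in Pax7_GM, 32.3 and 35.5 in Tw2_48, and 47.9 and 55.1 in Pax7_48. The 48 libraries were above the GM libraries in each lineage. Its log2 fold change in the Tw2 lineage was 0.46 ± 0.15 (adjusted p = 0.0204, limma), a rise that turned into a fall of 0.38 once the trend with GC content and length was removed, and that did not pass without the deeper Tw2_GM or the shallower Tw2_48 library (adjusted p = 0.128 and 0.12).

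Of 8 large subunit assembly factors 4 fell in the Pax7 lineage and 7 in the Tw2 lineage. Noc2l, part of a complex that carries early large subunits, fell by 1.28 ± 0.14 and 1.58 ± 0.14 on the log2 scale in the Pax7 and Tw2 lineages. Rrs1, which brings in the ribonucleoprotein of the small 5S ribosomal RNA, fell by 1.13 ± 0.13 and 1.5 ± 0.13, and Rrp1b by 1.13 ± 0.13 and 1.34 ± 0.13. Gnl3 (nucleostemin, chr14:31012433-31019152), a GTP-binding protein of stem and dividing cells, was at 165 and 151 CPM in Tw2_GM, 22.9 and 36.5 in Pax7_GM, 58.0 and 51.9 in Tw2_48, and 26.2 and 24.2 in Pax7_48. The Pax7_48 libraries lay between the 2 Pax7_GM libraries. Gnl3 fell by 1.5 ± 0.21 in the Tw2 lineage (adjusted p = 0.000158, limma), and its value in the Pax7 lineage was -0.19 ± 0.21 (adjusted p = 0.417), or -0.52 without the deeper Pax7_GM library and 0.13 without the shallower. Gnl2, its relative, passed in neither lineage, with log2 fold changes of 0.02 ± 0.21 (Pax7) and -0.49 ± 0.21 (Tw2, adjusted p = 0.0623, limma). The Tw2 value passed with a pseudocount of 5 (adjusted p = 0.0419), with the compared groups alone (0.0016) and without either Pax7_GM library (0.00222), and Gnl2 was called higher in the Pax7 lineage without the shallower Pax7_GM library (0.34, adjusted p = 0.0459). Nol8, a low gene with 2.84 and 8.68 CPM in Pax7_GM and 6.95 and 4.98 in Pax7_48, had 51.4 and 39.1 CPM in Tw2_GM and 22.6 and 20.5 in Tw2_48.

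The only RNA polymerase I subunit listed by these names, Polr1c, is shared with RNA polymerase III. It was at 54.1 and 59.8 CPM in Tw2_GM, 97.3 and 73.9 in Pax7_GM, 25.9 and 28.5 in Tw2_48, and 50.2 and 49.8 in Pax7_48, so that here the Pax7 libraries were the higher ones in both cultures. It fell by 0.75 ± 0.16 in the Pax7 lineage and by 1.04 ± 0.16 in the Tw2 lineage (adjusted p = 0.00242 and 0.000313, limma). Twistnb, listed with the regulators of RNA polymerase I below, had its higher libraries in the Tw2 lineage in both cultures. Its level was 29.0 and 27.6 CPM in Tw2_GM, 7.32 and 14.7 in Pax7_GM, 11.65 and 9.36 in Tw2_48, and 4.13 and 5.37 in Pax7_48.

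Of the 42 names 3 (Nol3, Nol4 and Rrp8) were grouped apart from these roles, Nol3 and Nol4 being kept by the name rule only. Nol3 encodes ARC, an inhibitor of apoptosis found in heart and skeletal muscle. It was at 20.3 and 24.4 CPM in Tw2_GM, 32.2 and 22.8 in Pax7_GM, 51.8 and 54.3 in Tw2_48, and 69.0 and 75.8 in Pax7_48. All 48 libraries were above all GM libraries, and Nol3 rose by a log2 fold change of 1.38 ± 0.18 in the Pax7 lineage and 1.22 ± 0.18 in the Tw2 lineage (adjusted p = 0.000152 and 0.000278, limma). Nol4, whose levels were between 5.5 and 22.8 CPM, fell by 0.65 ± 0.20 in the Pax7 lineage (adjusted p = 0.0164, limma, and 0.134 without the shallower Pax7_48 library) and by 1.18 ± 0.20 in the Tw2 lineage. The Pax7 value did not pass under any of the other scalings (size factors -0.44, quantile normalization -0.39, trend removed -0.31). Rrp8, which acts on nucleolar chromatin, fell by 0.90 ± 0.14 and 1.20 ± 0.14.

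**Figure D2:**
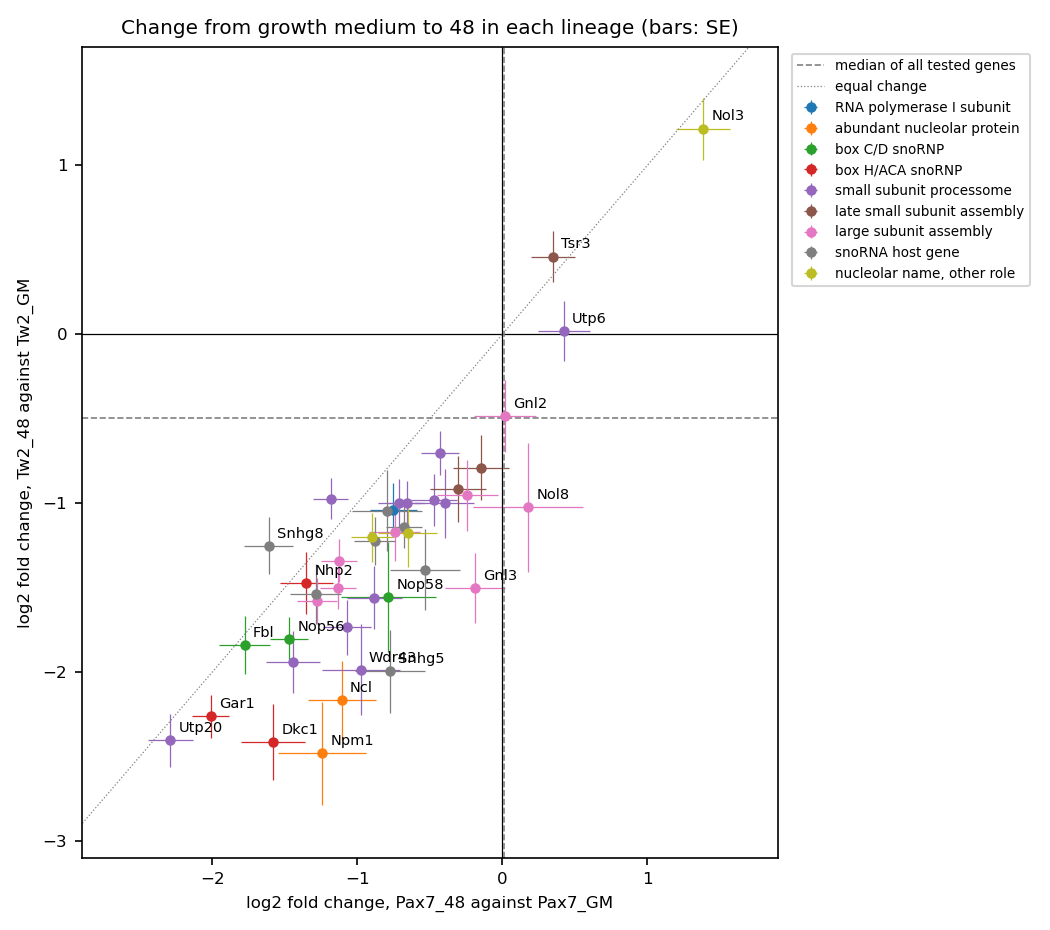
Log2 fold change from GM to 48 of the 42 genes in the Pax7 lineage (x axis) and in the Tw2 lineage (y axis), on the log2(CPM + 1) scale, with standard errors as bars, colours by role and dashed lines at the median of all tested genes. Most points lie in the lower left below the dotted line of equal change, Nol3 lies at 1.38 and 1.22 in the upper right, and Gnl3 has a fall of 1.5 in the Tw2 lineage beside -0.19 in the Pax7 lineage.

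Genes of the Snhg series are long RNAs not known to encode proteins, and snoRNAs are cut from their introns, so that a host transcript and its snoRNA are made together. Within the annotation, 6 of 7 Snhg members and 7 of the other 35 (Ncl, Nop56, Nop58, Dkc1, Gnl3, Tsr1 and Wdr43) overlap annotated snoRNA genes on their own strand, with 40 snoRNA genes in all. Of these 13 lie in introns of every annotated transcript, and the others, among them Snora75 and Snord50a, overlap an annotated exon of some transcript of the host. The host genes are 31.7% of the 41 members found in the annotation, against 2.10% of 5247 listed genes, as a description of the annotation. The Snhg genes were picked by a name that marks hosts, so the rule itself fixed a large part of this share. Among the members of other names it was 7 of 35. The snoRNAs themselves were not measured. Here 5 of them are shown as examples from hosts described here, chosen after the values were seen and among those in which the box letters were found. They are copied from the GENCODE vM21 transcripts (GRCm38), 5′ to 3′ as DNA, and capitals mark the letters of box C (TGATGA) and box D (CTGA), or the ACA near the end of the box H/ACA snoRNA Snora75.
Snord82 (in Ncl, chr1:86356261-86356330, - strand): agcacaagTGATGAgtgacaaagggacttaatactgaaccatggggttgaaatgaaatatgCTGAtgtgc
Snora75 (in Ncl, chr1:86351169-86351301, - strand): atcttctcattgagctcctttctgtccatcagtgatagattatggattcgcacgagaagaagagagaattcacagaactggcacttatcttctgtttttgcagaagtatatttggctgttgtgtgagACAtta
Snord11 (in Nop58, chr1:59704790-59704873, + strand): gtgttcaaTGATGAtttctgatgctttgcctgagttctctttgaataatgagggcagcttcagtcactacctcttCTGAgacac
Snord110 (in Nop56, chr2:130275506-130275573, + strand): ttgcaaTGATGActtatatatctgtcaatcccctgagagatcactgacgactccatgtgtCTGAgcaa
Snord50a (in Snhg5, chr9:88521529-88521600, - strand): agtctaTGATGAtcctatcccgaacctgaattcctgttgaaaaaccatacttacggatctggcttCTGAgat

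All 7 Snhg genes fell in the Tw2 lineage and 6 fell in the Pax7 lineage. Snhg5 (chr9:88521050-88522929), host of Snord50a and Snord50b, was at 66.2 and 67.5 CPM in Tw2_GM, 9.21 and 16.4 in Pax7_GM, 16.8 and 15.2 in Tw2_48, and 7.80 and 5.89 in Pax7_48. The Tw2_GM libraries stood far above the other 6. Snhg5 fell by 2.00 ± 0.24 in the Tw2 lineage and by 0.78 ± 0.24 in the Pax7 lineage on the log2 scale (adjusted p = 7.5e-05 and 0.0174, limma), the latter with an adjusted p of 0.119 without the shallower Pax7_48 library. Snhg8 (host of Snora24) had falls of 1.61 ± 0.17 in the Pax7 lineage and 1.25 ± 0.17 in the Tw2 lineage. Snhg1, the host with the most annotated snoRNAs (8), fell in the Tw2 lineage (-1.39 ± 0.24) and had a log2 fold change of -0.53 ± 0.24 in the Pax7 lineage (adjusted p = 0.0713, limma, and -0.94 without the deeper Pax7_GM library, where it passed). Of 2 listed hosts of other names, Gas5 fell by 0.95 ± 0.20 and 1.56 ± 0.20. The other, Rian, was called higher at 48 in the Pax7 lineage (log2 fold change 1.74). Its level there went from 39.6 and 57.9 CPM in GM to 190 and 138 at 48. In the Tw2 lineage Rian did not pass (0.09), with 5.91 and 4.07 CPM in GM and 6.12 and 4.58 at 48.

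These falls did not hang on the scaling for most genes. Of 30 falls called in the Pax7 lineage 27, and of 38 in the Tw2 lineage 35, were called as well with median-of-ratios size factors, quantile normalization, and the GC and length trend taken out of each library (the last not run for Snhg4). Size factors moved the median of all genes by 0.24 (Pax7) and 0.45 (Tw2) on the log2 scale, and the median of the 42 genes was then -0.58 and -0.79.

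The second comparison sets the lineages side by side in growth medium. Of 42 genes 28 were higher in Tw2_GM than in Pax7_GM, 3 were lower and 11 did not pass, against a background of 48.7% of all genes called higher and 26% called lower (limma, adjusted p below 0.05). The median log2 fold change was 0.86 over the 42 genes and 0.34 over all genes. Nol8 (2.91 ± 0.38), Npm1 (2.77 ± 0.30), Ncl (2.60 ± 0.23), Gnl3 (2.41 ± 0.21), Snhg5 (2.35 ± 0.24), Nop58 (2.32 ± 0.33), Wdr43 (2.05 ± 0.27) and Dkc1 (1.67 ± 0.22) had the highest values, with adjusted p from 6.28e-05 (Gnl3) to 0.000364 (Nop58). The markers of differentiating muscle were lower in Tw2_GM for 7 of 7 (median -2.35). Of the fibro-adipogenic markers, Col1a2 was lower in Tw2_GM (log2 fold change -6.51 ± 0.44, adjusted p = 1.91e-05, limma) and Col3a1 higher (1.04 ± 0.12, adjusted p = 0.000167). The part of either marker list in these differences was not tested.

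Partners in the same particle had unlike values. Nop58 and Dkc1 were higher in Tw2_GM, whereas Fbl (0.13 ± 0.17), Nop56 (0.30 ± 0.13) and Gar1 (0.23 ± 0.13) did not pass (adjusted p = 0.515, 0.0635 and 0.131, limma) and Nhp2 was lower (-0.59 ± 0.18, adjusted p = 0.0177). Noc2l and Rrs1 had log2 fold changes of 0.01 ± 0.14 and 0.15 ± 0.13. Tsr3 (-0.70 ± 0.15) and Polr1c (-0.57 ± 0.16) were the other genes called lower. Without the deeper Tw2_GM library Nhp2 and Polr1c did not pass (adjusted p = 0.106 and 0.0794), and without the shallower Pax7_GM library 5 genes were called lower.

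The values followed base composition. Over the 41 genes with an annotated transcript, Spearman's rho between the log2 fold change and the GC content was -0.69, beside -0.71 over all 5247 genes, again as a description. Npm1 (42.4% GC), Ncl (42.8%) and Nop58 (41.0%) are poor in GC, and Fbl (56.7%), Gar1 (57.0%), Nhp2 (54.1%) and Tsr3 (58.1%) are rich in it. With the trend with GC content and length removed from each library, 32 of 41 genes were higher in Tw2_GM and 2 (Wdr36 and Snhg6) were lower, beside 63.9% and 14.2% of all genes. Fbl then had a log2 fold change of 1.38, Gar1 of 1.46 and Noc2l of 0.91, and Nhp2 (0.63), Tsr3 (0.55) and Polr1c (0.56) turned from lower to higher. Wdr36 turned the other way, having been called higher as scaled in the table (187 and 181 CPM in Tw2_GM, 132 and 131 in Pax7_GM). Size factors shifted the median over all genes by -0.84, and then 12 genes were higher and 16 lower, beside 25.5% and 53.9% of all genes. With quantile normalization (a shift of -0.48) 18 were higher and 10 lower, beside 36.2% and 40.5% of all genes. The 11 genes called higher under all of these settings that could be run for them were Dkc1, Gnl3, Ncl, Nol8, Nop58, Npm1, Rrp15, Snhg4, Snhg5, Utp6 and Wdr43.

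**Figure D3:**
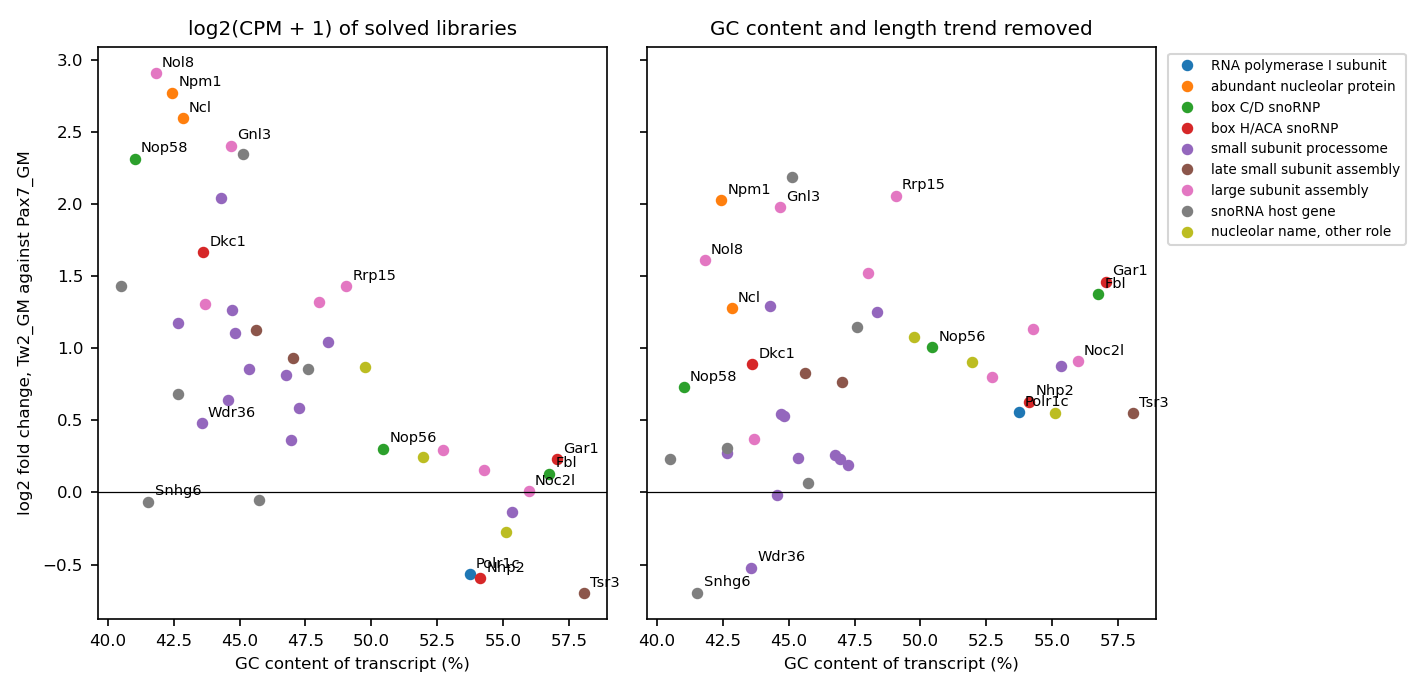
Log2 fold change of Tw2_GM against Pax7_GM (y axis) by the GC content of the transcript in percent (x axis) for 41 genes coloured by role, from limma on log2(CPM + 1) of the solved libraries (left) and with the trend with GC content and length removed (right). On the left the values run from 2.91 for Nol8 down to -0.70 for Tsr3 as GC content rises, and on the right the GC-rich genes Fbl (1.38) and Gar1 (1.46) lie among the higher ones.

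Ratios of 2 genes within a library do not depend on the library size or size factor, though quantile normalization and removal of the trend change them. Pairs were chosen after their values were seen and carry no test. They are ratios of CPM, not per length, and are read only between libraries. Nop58 over Nop56 was 1.04 and 0.98 in Tw2_GM and 1.20 and 1.21 in Tw2_48, against 0.16 and 0.37 in Pax7_GM and 0.40 and 0.39 in Pax7_48. Dkc1 over Gar1 was 2.92 and 2.37 in Tw2_GM and 2.71 and 2.23 in Tw2_48, against 0.74 and 1.25 in Pax7_GM and 1.31 and 1.33 in Pax7_48. Both ratios separated the lineages in both cultures, and within the Tw2 lineage the values at 48 were near those in GM. Other partners were not level there: Dkc1 over Nhp2 went from 1.6 and 1.32 in Tw2_GM to 0.95 and 0.59 in Tw2_48 (0.20 and 0.44 in Pax7_GM, 0.26 and 0.23 in Pax7_48). Nop58 over Fbl went from 5.73 and 4.51 to 7.5 and 5.55 (0.62 and 1.96 in Pax7_GM, 2.42 and 2.14 in Pax7_48). Npm1 over Fbl went from 11.7 and 10.1 in Tw2_GM to 8.26 and 6.38 in Tw2_48, and was 1.00 and 2.97 in Pax7_GM and 2.63 and 2.55 in Pax7_48. In each of these pairs the first gene is the poorer in GC.

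**Figure D4:**
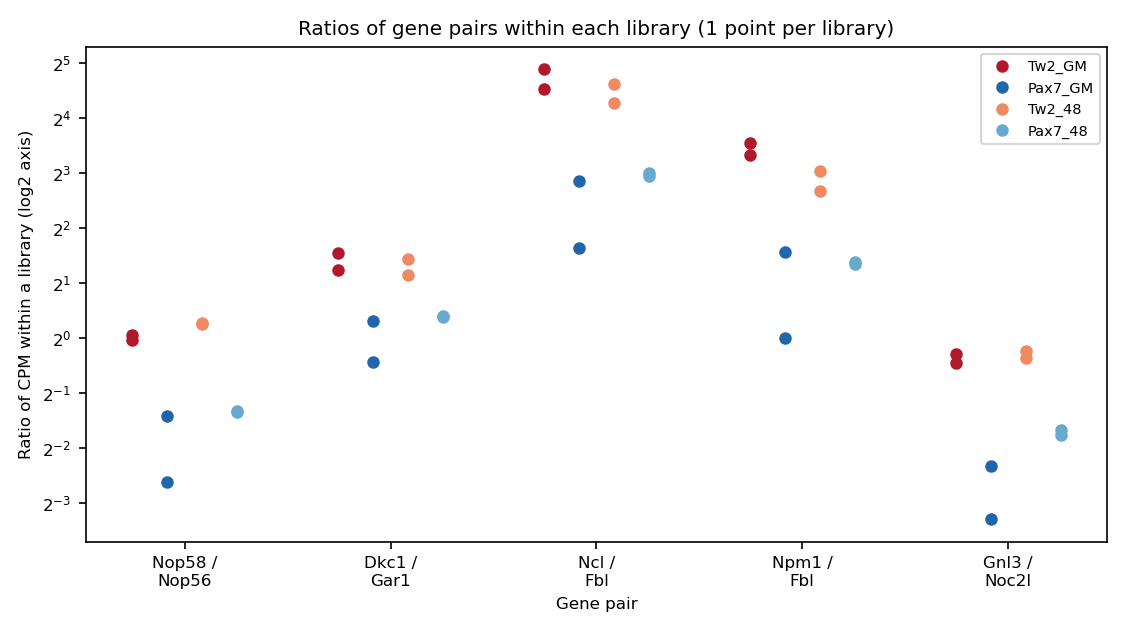
Ratio of the CPM of 2 genes within each library (y axis, log2 scale) for 5 gene pairs (x axis), 1 point per library and coloured by group. For Nop58 over Nop56 the 4 Tw2 points lie at 0.98 to 1.21 and the 4 Pax7 points at 0.16 to 0.40, and the 2 Pax7_GM points are farther apart than those of any other group.

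The third comparison sets the lineages side by side at 48. Of 42 genes 19 were higher in Tw2_48 than in Pax7_48, 5 were lower and 18 did not pass, against a background of 43.3% higher and 22.1% lower, so that the share of higher calls was close to that of all genes. Nol8 (1.71 ± 0.38), Nop58 (1.55 ± 0.33), Ncl (1.54 ± 0.23) and Npm1 (1.53 ± 0.30) again led (adjusted p from 0.00141 to 0.0057, limma). Here too the values followed GC content, with Spearman's rho of -0.66 over the 41 genes and -0.64 over all 5247. These 4 and Snhg4 were also called higher under each of the other scalings that could be run for them. Fbl (0.07 ± 0.17), Gar1 (-0.02 ± 0.13) and Nop56 (-0.03 ± 0.13) did not pass. Polr1c (-0.86 ± 0.16), Nhp2 (-0.71 ± 0.18), Tsr3 (-0.59 ± 0.15), Snhg6 (-0.53 ± 0.13) and Noc4l (-0.43 ± 0.15) were lower. Size factors gave 5 higher and 15 lower (17.3% and 48.3% of all genes) and quantile normalization 9 and 11 (29.5% and 31.5%). With the trend with GC content and length removed, 23 of 41 were higher and 3 lower (47.3% and 12.3% of all genes). Noc4l did not pass without any 1 of the 6 libraries outside Pax7_GM and Snhg6 did not without the shallower Tw2_48 library (adjusted p = 0.054), and with the GC and length trend removed Nhp2 (0.11), Tsr3 (0.25) and Noc4l (0.23) turned positive and Polr1c did not pass (-0.11, adjusted p = 0.363). Of the 5 lower calls only that of Snhg6 was made under each of the other scalings. The numbers of higher and lower calls among the 42 genes moved with the library left out, and so did the shares of all genes called.

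The difference of the changes, the fall in the Tw2 lineage beyond that in the Pax7 lineage, was negative for 39 of 42 genes and passed for 2 of them, against a background of 9.01% of all genes called lower and 9.72% called higher. The median was -0.42 over the 42 genes and -0.22 over all genes, and 12 genes were at an unadjusted p below 0.05. Gnl3 had -1.31 ± 0.29 (adjusted p = 0.0186, limma) and Snhg5 -1.22 ± 0.34 (adjusted p = 0.0427). Npm1 (-1.24 ± 0.43), Nol8 (-1.20 ± 0.54), Ncl (-1.06 ± 0.33) and Wdr43 (-1.01 ± 0.38) did not pass (adjusted p = 0.0805, 0.148, 0.0594 and 0.1, limma). Neither Gnl3 nor Snhg5 passed without any 1 of the 6 libraries outside Pax7_GM. The number of the 42 genes called lower moved with the library left out, and so did the share of all genes called lower. Without the deeper Pax7_GM library 4 were called lower (18.4% of all genes), and without the shallower 23 were lower and 1 higher (40.2% and 17.6% of all genes). Once the GC and length trend was taken out, 14 of 41 were called lower, beside 22.3% of all genes. Spearman's rho between the difference and GC content was 0.63 over the 41 genes and 0.48 over all. The markers of differentiating muscle differed as well, with 7 of 7 rising more in the Tw2 lineage (median 2.65), and their part in the difference was not tested.

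The other genes of the pathway were taken from lists of known factors, and their counts are read against the same backgrounds as above (40.5% of all genes lower and 38.8% higher in the Pax7 lineage, 48.9% and 35.3% in the Tw2 lineage). Of 112 assembly factors with other names 52 are in the table, and of these 30 fell (57.7%) and 2 rose in the Pax7 lineage and 45 fell (86.5%) and 2 rose in the Tw2 lineage. In GM 42 were higher in the Tw2 lineage (80.8%, against 48.7% of all genes) and 1 lower. With size factors 22 were higher and 14 lower, beside 25.5% and 53.9% of all genes. Rcl1, a processome factor, fell by 2.35 ± 0.13 and 2.51 ± 0.13 in the Pax7 and Tw2 lineages, and Exosc8, a subunit of the RNA exosome, by 1.99 ± 0.14 and 2.5 ± 0.14. Xpo1, the export receptor that takes ribosomal subunits out of the nucleus among many other cargoes, was at 443 and 356 CPM in Tw2_GM, 37.5 and 78.7 in Pax7_GM, 52.5 and 40.3 in Tw2_48, and 21.3 and 21.6 in Pax7_48. Xpo1 fell by 3.08 ± 0.31 in the Tw2 lineage and by 1.30 ± 0.31 in the Pax7 lineage. With Cebpz it was 1 of 2 listed factors (3.85% of 52, against 9.01% of all genes called lower) whose falls differed between the lineages. The differences were -1.78 ± 0.44 for Xpo1 (adjusted p = 0.0272, limma) and -1.11 ± 0.31 for Cebpz (adjusted p = 0.0419, limma). Neither of these differences passed without any 1 of the 6 libraries outside Pax7_GM. The difference of Cebpz also did not pass with a pseudocount of 0.25 or with size factors (adjusted p = 0.0537 and 0.0681, limma). Riok3, a kinase, rose in both lineages (1.51 ± 0.14 and 1.71 ± 0.14).

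Of 13 listed cytosolic ribosomal proteins 11 fell in the Pax7 lineage (84.6%) and 12 in the Tw2 lineage (92.3%), for example Rpl12 by 1.49 ± 0.16 and 1.81 ± 0.16 and Rps12 by 1.41 ± 0.13 and 1.80 ± 0.13. Rpl5, which travels with the small 5S ribosomal RNA, rose in both (0.78 ± 0.23 and 0.63 ± 0.23, adjusted p = 0.0122 and 0.0299, limma), though not without the deeper Pax7_48 library (adjusted p = 0.0856) or, in the Tw2 lineage, without any 1 of its own 4 libraries. Ribosomal protein genes have many processed copies, and how reads shared with them were counted is not given in the sources used here. Mitochondrial ribosomal proteins did not follow: of 15 listed, 11 rose (73.3%) and 0 fell in the Pax7 lineage, and 9 rose (60%) and 1 fell in the Tw2 lineage. With the GC and length trend removed, 3 rose and 3 fell in the Tw2 lineage, beside 36.1% and 48.6% of all genes.

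Among 12 listed factors of RNA polymerase I and of the Myc network, 7 fell (58.3%) and 3 rose in the Pax7 lineage and 8 fell (66.7%) and 3 rose in the Tw2 lineage. Myc was at 116 and 119 CPM in Tw2_GM, 113 and 103 in Pax7_GM, 6.77 and 7.88 in Tw2_48, and 10.3 and 8.38 in Pax7_48. The 4 GM libraries lay between 103 and 119 CPM, and all 48 libraries were far below. Myc fell by 3.40 ± 0.15 in the Pax7 lineage and by 3.83 ± 0.15 in the Tw2 lineage (adjusted p = 3.29e-07 and 7.54e-08, limma), and its difference between the lineages in GM was 0.12 ± 0.15 (adjusted p = 0.475), a value that turned to -0.74 with size factors and to 1.00 with the trend removed. Mxd1 and Mxd4, which compete with Myc for its partner Max, and the topoisomerase Top1 rose in both lineages, Top1 in the Tw2 lineage by 0.88 ± 0.29 (adjusted p = 0.0188, limma), which did not pass without the shallower Tw2_GM library or either Tw2_48 library (adjusted p from 0.0521 to 0.0897). Mxd3 and Mxi1, of the same family as Mxd1 and Mxd4, fell in both, by 2.52 ± 0.17 and 2.5 ± 0.17 (Mxd3) and by 0.74 ± 0.13 and 1.51 ± 0.13 (Mxi1). Ubtf and Rrn3, 2 initiation factors of RNA polymerase I, were not analysed here. Of 9 listed RNA polymerase III genes 3 fell (33.3%) and 2 rose in the Pax7 lineage, and 4 fell (44.4%) and 2 rose in the Tw2 lineage, shares of falls below those of all genes.

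Promoter sequences of 31 of the 42 genes were found in RefSeq (GRCm38.p6, 250 bases before to 50 after the annotated start). The E-box CACGTG, the palindrome that Myc with Max and other factors can bind, was in 6 of 31 (19.4%), against 11.1% of 4143 listed genes and 7.24% of all 27025 promoters. CCGGAAG, the core that Ets factors can bind, on either strand, was in 12 (38.7%), against 16.1% and 9.12%. Together, 15 of 31 promoters (48.4%) held at least 1 of them, against 25.6% and 15.5%. Of the other letters searched on both strands, the longer CGCG palindrome of many housekeeping promoters was in 0 of 31 (1.26% of listed genes), GCCATNTT in 2 (6.45%, against 8.42% of listed genes and 6.23% of all promoters) and TATAAA in 6 (19.4%, against 6.66% and 14.2%). A match describes the sequence and is neither a bound site nor a cause. The 250 bases before the start are shown, 5′ to 3′ on the strand of the gene, for Gar1, whose fall was among the largest in both lineages, for Nol11, a processome gene with log2 fold changes of -0.43 ± 0.13 and -0.70 ± 0.13 (the first not passing without the shallower Pax7_48 library, adjusted p = 0.109, and neither with size factors or with the trend removed), and for Utp18, which holds both motifs and fell in the Tw2 lineage by 1.00 ± 0.20. In the Pax7 lineage Utp18 was at 30.6 and 48.0 CPM in GM and at 30.6 and 27.2 at 48. Ltv1 and Tsr1 hold both motifs too, and were called lower in the Tw2 lineage only. Capitals mark CACGTG and CCGGAAG, the latter read as CTTCCGG where it lies on the other strand.
Gar1 (chr3:129831397-129831646, - strand): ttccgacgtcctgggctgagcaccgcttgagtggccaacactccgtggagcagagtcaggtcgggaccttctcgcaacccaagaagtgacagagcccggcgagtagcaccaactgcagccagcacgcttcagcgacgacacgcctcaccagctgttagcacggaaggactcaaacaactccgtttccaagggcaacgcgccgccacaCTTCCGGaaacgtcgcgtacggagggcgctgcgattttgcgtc
Nol11 (chr11:107189382-107189631, - strand): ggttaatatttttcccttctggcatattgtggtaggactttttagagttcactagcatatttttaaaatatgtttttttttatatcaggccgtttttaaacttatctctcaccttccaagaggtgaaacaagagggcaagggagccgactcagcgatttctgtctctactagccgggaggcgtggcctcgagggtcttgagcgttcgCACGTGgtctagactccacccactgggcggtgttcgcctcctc
Utp18 (chr11:93885767-93886016, - strand): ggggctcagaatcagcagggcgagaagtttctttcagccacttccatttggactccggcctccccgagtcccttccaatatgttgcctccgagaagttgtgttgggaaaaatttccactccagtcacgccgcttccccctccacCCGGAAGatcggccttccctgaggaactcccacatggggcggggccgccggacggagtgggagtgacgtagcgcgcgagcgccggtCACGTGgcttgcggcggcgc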

How the data were processed

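RNA-seq of 8 libraries in 4 groups was analysed from 1 table. Per the submitters' processing notes TopHat2 2.0.0, DESeq2 1.6.3 and GRCm38 (mm10) were used. The counting tool, annotation and strand handling are not given in the sources used here. The authors deposited group means in CPM and, for the other groups against Tw2_GM, a log2 fold change that follows from the deposited means plus 1 to within 1.4e-11. No listed gene has all of these log2 values between -1 and 1, and the 5452 solved genes have at least 10 CPM in at least 4 of the 8 libraries, so the table is selected.

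Each mean was taken apart into whole reads of its 2 libraries, and 5452 of 5457 genes had a single solution. On simulated means 5455 to 5457 of 5457 were solved, with the right reads. Floors of 3 reads are 0.218 to 0.579 CPM and cover counting error only. Groups were compared with limma 3.58.1 (R 4.3.3) on log2(CPM + 1), fitting the 4 group means to the 8 libraries (residual df 4) and Benjamini-Hochberg adjustment over all 5452 genes, called below 0.05. Fold changes are on this scale, which understates the change of low genes, and ± is the standard error. Genes described in full are those of each role with the largest changes, the defining genes of each complex, and called genes with the largest values per direction; Utp6, Gnl2, Utp18, Nol11 and the pairs for ratios were chosen after their values were seen. The members, lists and tests were chosen with earlier results of these data known. In the alternatives below, size factors, quantiles and the GC and length trend were set from the listed genes only. Alternatives were pseudocounts of 0.25 and 5, a mean of at least 20 CPM, median-of-ratios size factors, quantile normalization, removal of each library's dependence on the GC content and length of transcripts (splines with 4 df, GENCODE vM21 transcripts of 5247 genes), an eBayes variance trend, the compared groups alone, and leaving out each library, where the lone library is taken to vary like the others.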

Additional observations from a re-analysis of the deposited data

Results flagged for a closer look

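For 2 genes the change from GM to 48 differed between the lineages by the test of that difference (limma, adjusted over 5452 genes), against a background of 9.01% of all genes called lower. Gnl3, the nucleolar GTP-binding protein nucleostemin, had a difference of -1.31 on the log2 scale, and Snhg5, the host of Snord50a and Snord50b, one of -1.22. Each fell further in the Tw2 lineage, from a higher level in Tw2_GM. Leaving out a library, Gnl3 ranged from -0.99 to -1.64 and Snhg5 from -0.84 to -1.61. Both passed without either Pax7_GM library, and neither passed without any 1 of the other 6, where the adjusted p was 0.0602 to 0.0845 for Gnl3 and 0.078 to 0.16 for Snhg5. Snhg5 did not pass with a pseudocount of 0.25 (0.0637) or with size factors (0.0745) either. The Pax7_GM libraries are the pair that differ most from each other, and the part of this in the result was not tested.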

How the results depend on the processing

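No paired analysis was possible because the deposited means carry no replicate numbers. Counts are of the 42 genes (41 with the GC and length trend removed), and the cause of each shift was not tested unless stated. Against Pax7_GM, Tw2_GM had 12 genes higher and 16 lower after size factors, 18 and 10 after quantile normalization, and 1 lower with the compared groups alone (fewer libraries). Against Pax7_48, Tw2_48 had 5 higher and 15 lower after size factors, 9 and 11 after quantile normalization, and 3 lower with the trend removed. Higher calls in the Pax7 change numbered 2 with a pseudocount of 5, quantile normalization, the trend removed or a variance trend, and 3 with size factors. The difference of the changes had 1 lower call with a pseudocount of 0.25 or size factors, 4 with quantile normalization, 5 with a pseudocount of 5 and 14 with the trend removed. Leaving out 1 library gave 1 to 5 lower calls in GM, 10 to 26 higher and 2 to 7 lower calls at 48, 1 to 4 higher calls in the Pax7 change, 1 to 2 in the Tw2 change, and 0 to 23 lower and 0 to 1 higher calls in the difference.

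Directions that turned were these. In GM, size factors gave -0.72 for Fbl, -0.62 for Gar1, -0.57 for Nop56, -0.86 for Noc2l, -0.71 for Rrs1 and -0.74 for Myc, and quantile normalization -0.48, -0.38, -0.15, -0.51, -0.43 and -0.42 in the same order. The trend removed gave 0.63 for Nhp2, 0.56 for Polr1c and 0.55 for Tsr3. At 48, size factors gave -0.55 and quantile normalization -0.29 for Fbl, and the trend removed gave 0.80 for Gar1, 0.11 for Nhp2, 0.23 for Noc4l, 0.46 for Nop56 and 0.25 for Tsr3. In the Pax7 change Gnl3 was 0.049 and Ltv1 0.097 with size factors, and Ltv1 was 0.094 and Tsr1 0.078 with the trend removed. In the Tw2 change Tsr3 was -0.38 with the trend removed. Leaving out 1 library, values near 0 crossed it: in GM Fbl ranged from -0.085 to 0.35 and Noc2l from -0.14 to 0.16, at 48 Fbl from -0.037 to 0.17, Gar1 from -0.057 to 0.019 and Nop56 from -0.13 to 0.078, and in the Pax7 change Gnl2 from -0.31 to 0.34, Gnl3 from -0.52 to 0.13 and Ltv1 from -0.41 to 0.12. Wdr36 in GM was called higher as scaled in the table and lower with the trend removed. Among the values followed through the alternatives, no others turned their direction. Not all named values were followed in this way, Wdr36 and Rian among those left out. Depth limits the low genes: at 2.84 to 8.68 CPM the Pax7_GM levels of Nol8 lie within a small multiple of the floor of 3 reads (0.41 and 0.58 CPM).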
